A study of Mus musculus with 6 samples.

Results

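Genes of the cornified envelope and of terminal keratinocyte differentiation were followed in sorted hair follicle stem cells of wild-type and transgenic mice. The members were the genes with an Lce or Sprr symbol followed by a digit, together with 23 genes listed by symbol, among them Flg, Lor, Ivl, Tgm1, Casp14 and Grhl3. They came to 53 of the 22180 genes measured with a feature of their own, with 18 Lce genes, 12 Sprr genes and the 23 listed genes. The rule itself uses no measured value. A feature is an array's set of probes for 1 transcript cluster, and where a gene had several, the brightest was used.

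The study hybridised RNA of cells sorted from mouse skin on CD34 and α6-integrin, surface proteins of the follicle bulge, on 1 Affymetrix array per sample. The wild-type group (WT) had 3 arrays. The transgenic group (TG) had 3 arrays from K14-sPLA2-IIA mice, which carry secreted phospholipase A2 group IIA driven by the keratin 14 promoter, which works in the basal epidermis and in the follicle's outer root sheath. All mice were at postnatal day 49, and neither the strain nor the number of mice per sample is stated in the labels. As these are sorted cells measured in bulk, fewer cells of a type and less RNA per cell cannot be told apart.

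As keratinocytes leave the basal layer they flatten, lose their nuclei and build a cross-linked protein shell, the cornified envelope, under the plasma membrane. Involucrin and other early proteins form a scaffold, loricrin and the small proline-rich (SPRR) and late cornified envelope (LCE) proteins reinforce it, and transglutaminases join them by isopeptide bonds. Filaggrin gathers keratin filaments inside the dying cell, and proteases with their inhibitors later control the shedding of the outermost cells. Many of these genes lie side by side in the epidermal differentiation complex, which in the mouse is on chromosome 3. Of the 53 members, 36 lie on chromosome 3 in the RefSeq gene table (assembly GRCm38.p6), 7 on chromosome 7 and 10 elsewhere. Bulge stem cells are undifferentiated and are not known for making a cornified envelope.

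The arrays numbered 3 of both genotypes stood apart from the others. On the first principal component, which held 64.6% of the variance over all genes, WT array 3 scored 50.2 and TG array 3 scored 53.2. WT arrays 1 and 2 and TG array 2 scored between -34.3 and -32.7, and TG array 1 scored -2.78. Cd34, the gene of a surface protein used for the sort, gave log2 values of 9.78, 9.89 and 13.07 for WT (arrays 1 to 3 in order, here and in all that follows) and 11.57, 9.65 and 12.42 for TG. Itga6, the gene of α6-integrin, read 10.14 to 10.48 in WT and 10.01 to 10.49 in TG. Krt15, a keratin gene of the bulge, read between 13.21 and 13.50 on all 6. Pla2g2a, the gene the transgene encodes, read 5.75 to 6.77 in WT and 12.39 to 12.61 in TG, so each array matched its genotype label.

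The cornification genes varied mainly with the array and less with the genotype. On the arrays numbered 3, 20 of the 53 members were at least 2-fold below the mean of arrays 1 and 2 in both genotypes, against 2.62% of all genes tested. The median member differed there by -0.78 in WT and by -0.76 in TG on the log2 scale, and the median of all genes by -0.072 and -0.056. In both genotypes 39 of the 53 read lower on array 3, against 43.9% of all genes. Over the 6 arrays 33 members had a range of at least 2-fold, against 18.6% of all genes. Among the 23 genes listed by symbol the median was -1.58 in WT and -1.54 in TG, and 16 of the 23 were at least 2-fold lower in both. Tgm5 was the 1 member at least 2-fold higher on array 3 in both genotypes, where 1.21% of all genes were. Array 3 was singled out after its values had been seen, so these are descriptions without a test.

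**Figure D1:**
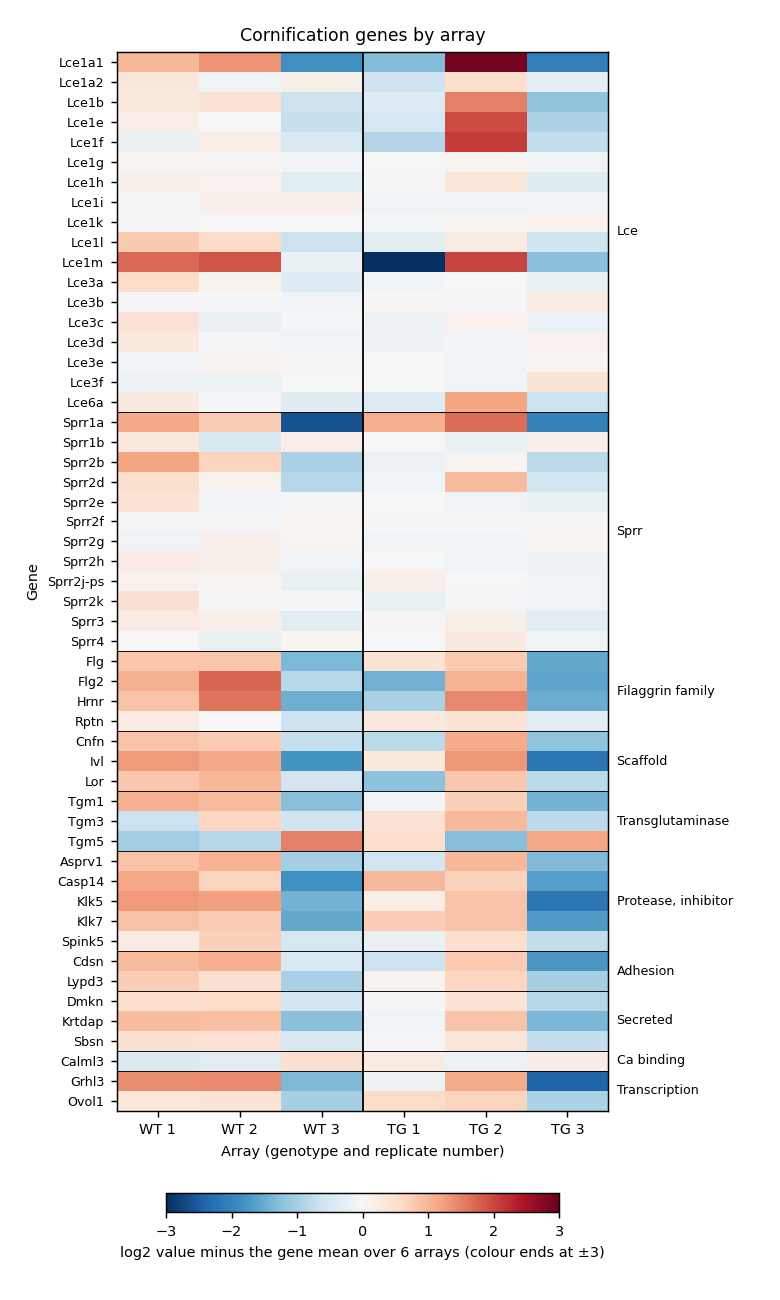
The log2 value of each of the 53 genes (rows, grouped by role) on each of the 6 arrays (columns), shown as the difference from the gene's mean over the arrays; red is above and blue below that mean. Columns WT 3 and TG 3 are blue for most genes outside the Lce and Sprr blocks, Tgm5 runs the other way, and TG 1 is blue for Lce1m.

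The genotype comparison called none of the cornification genes. In limma, with Benjamini-Hochberg adjustment over all 22180 genes, 0 of the 53 members passed the threshold of 0.05 on the adjusted p, where 0.00451% of all genes did (Pla2g2a alone), and each member had an adjusted p of 0.99996. At an unadjusted p under 0.05 there were again 0 members, against 2.77% of all genes. The median TG minus WT difference was -0.14 over the 53 members and -0.0075 over all genes, and 35 of 53 members were below 0, or 66.0%, against 52.1% of all genes. The 23 listed genes had a median of -0.32, the Lce genes -0.050 and the Sprr genes -0.052. Above the median gene lay 22 of the 23 listed genes, but only 4 of the 18 Lce and 2 of the 12 Sprr genes. The family medians were thus taken at unlike signal levels. Without both arrays numbered 3 the median was -0.18 over the members and -0.35 over the 23 listed genes. Without TG array 3 alone these medians were 0.023 and 0.068, and without WT array 1 alone the median over the members was 0.022, so their sign rested on single arrays.

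Only Lce1i had TG arrays that did not overlap the WT arrays, on the lower side, where 3.21% of all genes did so. It read 4.07, 4.19 and 4.20 in WT and 3.92, 3.91 and 3.96 in TG, a difference of -0.22 ± 0.12 (SE). This gap is a narrow one between low values. No member was without overlap on the higher side, against 3.99% of all genes.

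With arrays of the same replicate number treated as pairs, 0 members passed the adjusted threshold, while 6 had an unadjusted p under 0.05, or 11.3%, against 8.45% of all genes. All 6 were lower in TG, where 3.86% of all genes were, and all were among the 23 listed genes. None was higher, against 4.59% of all genes. They were Cdsn (-1.05 ± 0.25, SE), Flg2 (-1.32 ± 0.37), Grhl3 (-0.97 ± 0.24), Klk5 (-0.73 ± 0.16), Dmkn (-0.32 ± 0.12) and Spink5 (-0.29 ± 0.11). Their paired adjusted p in limma lay between 0.538 and 0.580. Whether the replicate numbers mark pairs is not stated in the labels.

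**Figure D2:**
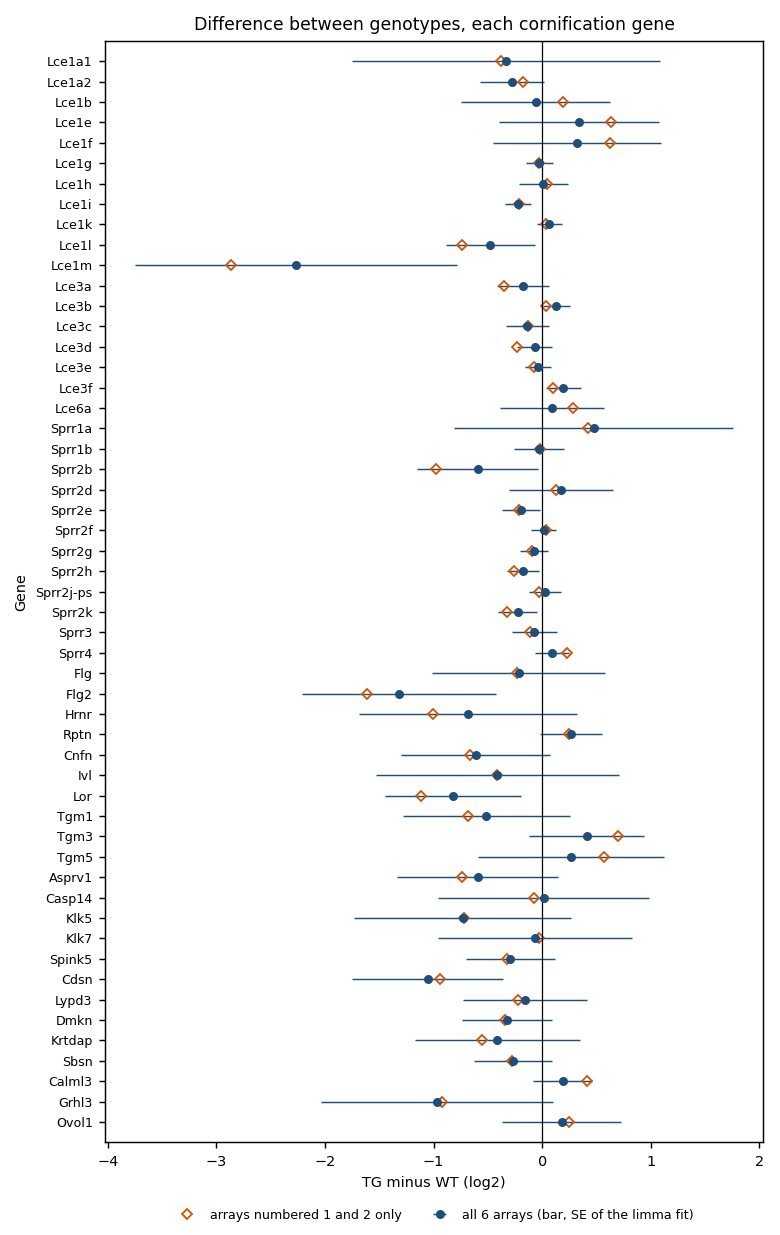
TG minus WT difference (log2) of each of the 53 genes, with all 6 arrays (filled circles; bars are the SE of the limma fit) and with the arrays numbered 1 and 2 only (open diamonds). The bars of most genes cross 0, and Lce1m at -2.27 lies farthest from it.

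Promoter windows are shown for 6 members that stand for the patterns described here, since the Sprr and Lce families differed in the letters they held there. Each window runs from 250 bases before to 50 bases after the RefSeq start in GRCm38.p6. Capitals mark matches on either strand to the AP-1 letters TGANTCA or to the TATA box letters TATAAA. N is any base, so the Flg2 match TGAATCA was counted along with TGAGTCA and TGACTCA. The windows are those of Sprr1a (chr3:92485832-92486131, minus strand), with the largest array 3 drop, Ivl (chr3:92573686-92573985, minus strand), Lor (chr3:92083093-92083392, minus strand) and Flg2 (chr3:93197023-93197322, plus strand), which parted from Flg. Lce1m (chr3:93019012-93019311, minus strand) is shown for its low value on TG array 1 and Tgm5 (chr2:121085792-121086091, minus strand) as the member that ran the other way.
Sprr1a: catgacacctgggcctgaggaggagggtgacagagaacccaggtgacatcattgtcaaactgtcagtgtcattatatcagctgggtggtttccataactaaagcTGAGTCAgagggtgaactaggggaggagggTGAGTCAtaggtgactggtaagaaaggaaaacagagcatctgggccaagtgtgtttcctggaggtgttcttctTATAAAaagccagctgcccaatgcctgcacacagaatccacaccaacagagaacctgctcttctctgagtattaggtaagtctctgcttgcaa
Ivl: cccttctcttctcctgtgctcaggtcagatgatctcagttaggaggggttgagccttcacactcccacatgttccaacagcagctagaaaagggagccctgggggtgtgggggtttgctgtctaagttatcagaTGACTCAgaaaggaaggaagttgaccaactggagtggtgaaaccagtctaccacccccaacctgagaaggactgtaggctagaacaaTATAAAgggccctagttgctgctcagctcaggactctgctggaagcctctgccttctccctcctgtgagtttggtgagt
Lor: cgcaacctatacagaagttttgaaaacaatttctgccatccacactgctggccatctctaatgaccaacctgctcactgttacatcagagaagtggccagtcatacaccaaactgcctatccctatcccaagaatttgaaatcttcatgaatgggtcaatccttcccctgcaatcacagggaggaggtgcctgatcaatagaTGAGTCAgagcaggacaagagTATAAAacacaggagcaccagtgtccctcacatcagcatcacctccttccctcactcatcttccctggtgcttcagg
Flg2: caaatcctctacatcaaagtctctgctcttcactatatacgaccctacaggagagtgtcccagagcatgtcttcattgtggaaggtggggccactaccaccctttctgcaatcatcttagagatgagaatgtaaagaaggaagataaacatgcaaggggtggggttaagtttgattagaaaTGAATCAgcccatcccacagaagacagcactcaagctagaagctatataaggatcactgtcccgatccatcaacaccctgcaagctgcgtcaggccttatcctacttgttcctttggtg
Lce1m: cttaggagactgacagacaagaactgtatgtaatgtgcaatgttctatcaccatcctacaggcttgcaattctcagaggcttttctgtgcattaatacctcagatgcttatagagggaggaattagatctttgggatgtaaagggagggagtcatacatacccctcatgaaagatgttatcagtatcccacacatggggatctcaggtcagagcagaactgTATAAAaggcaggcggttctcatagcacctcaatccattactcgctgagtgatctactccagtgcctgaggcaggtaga
Tgm5: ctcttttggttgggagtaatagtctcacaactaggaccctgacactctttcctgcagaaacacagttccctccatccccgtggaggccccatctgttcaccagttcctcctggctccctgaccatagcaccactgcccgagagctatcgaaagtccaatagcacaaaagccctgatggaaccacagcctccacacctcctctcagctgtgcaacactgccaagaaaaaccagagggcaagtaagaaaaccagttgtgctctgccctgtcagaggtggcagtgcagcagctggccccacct

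AP-1 is the factor family formed by Jun and Fos proteins, and windows were found for 47 of the 53 members. The AP-1 letters stood in 8 of 10 Sprr windows, 0 of 17 Lce windows and 8 of 20 windows of the listed genes, against 7.39% of the 16990 windows of tested genes. The TATA box letters stood in 9 of 10 Sprr windows, 3 of 17 Lce windows and 7 of 20 of the listed genes, against 12.9% of all. Both motifs stood in the windows of Sprr2b, Sprr2d, Sprr2e, Sprr2f, Sprr2h and Sprr2k. As Sprr2 genes are near-identical copies, these windows may not be independent. Sprr1a has AP-1 matches beginning 146 and 116 bases before its start, and Ivl has 1 beginning 116 bases before. Members at least 2-fold lower on array 3 in both genotypes held the AP-1 letters in 7 of 19 windows and the other members in 9 of 28. The CACCC letters bound by Kruppel-like factors stood in 57.4% of member windows and 58.8% of all windows. By family they stood in 16 of 20 windows of the listed genes, 6 of 17 Lce windows and 5 of 10 Sprr windows. Members at least 2-fold lower on array 3 in both genotypes held them in 15 of 19 windows and the other members in 12 of 28. This difference was not tested. The grainyhead letters AACCNGTT stood in 2 of 47 member windows and 1.92% of all. None of these motifs contains another, and the Tgm5 window has no capitals because it holds neither marked motif. A match is a description of letters and not a bound site.

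The scaffold genes read lower on the arrays numbered 3 than on WT arrays 1 and 2 and TG array 2, while TG array 1 differed between them. Ivl, encoding involucrin, an early envelope protein, read 11.79, 11.66 and 8.71 in WT and 10.80, 11.80 and 8.31 in TG. The difference of array 3 from the mean of arrays 1 and 2 was -3.01 in WT, or 8.06-fold lower, and -2.99 in TG. The genotypes overlapped, with a difference of -0.41 ± 1.12 (SE). Lor encodes loricrin, the most abundant envelope protein of the epidermis, and read 11.76, 11.94 and 10.36 in WT and 9.71, 11.75 and 10.12 in TG. Here TG array 1 was the lowest of the 6, and the difference was -0.82 ± 0.63. Cnfn, encoding the envelope component cornifelin, read 9.59, 9.49 and 8.03 in WT and 7.93, 9.84 and 7.52 in TG. TG array 1 was again close to the arrays numbered 3 and not to TG array 2.

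In the filaggrin family, too, TG array 1 differed between genes. Flg, encoding profilaggrin, read 8.62, 8.63 and 6.44 in WT and 8.20, 8.58 and 6.25 in TG. The arrays numbered 1 and 2 lay close together in both genotypes, and those numbered 3 far below them. Flg2, encoding the related filaggrin-2, read 9.53, 10.21 and 7.62 in WT and 7.01, 9.49 and 6.89 in TG. TG array 1 lay near TG array 3 in Flg2 and near TG array 2 in Flg, so these neighbouring genes separated on that array. The Flg2 difference was -1.32 ± 0.89 (SE) with a 95% interval from -3.46 to 0.81. Hrnr, encoding hornerin, read 7.66, 8.41 and 5.35 in WT and 5.82, 8.24 and 5.31 in TG, and thus followed Flg2. Rptn, encoding repetin, varied less and read between 5.13 and 6.18.

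The Sprr genes divided into a few that varied and many that were nearly flat. Sprr1a, a cross-bridging envelope protein gene that is also induced in stressed keratinocytes, read 10.93, 10.57 and 7.18 in WT and 10.88, 11.47 and 7.76 in TG. Its array 3 difference from arrays 1 and 2, of -3.57 in WT and -3.41 in TG, was the largest among the 53 members in both genotypes. The 2 genotypes differed by 0.47 ± 1.28 (SE), with a 95% interval from -2.59 to 3.54. Sprr2b read 8.65, 8.14 and 6.48 in WT and 7.29, 7.54 and 6.65 in TG, so that WT arrays 1 and 2 stood above all TG arrays. Sprr2d read 5.81, 5.46 and 4.50 in WT and 5.22, 6.30 and 4.76 in TG. For the 9 other Sprr members the range over all 6 arrays stayed under 1 on the log2 scale. All of them lay below the median gene, and their low values limit what this flatness can show. Among them Sprr1b read 5.32 to 6.11 and Sprr4 5.79 to 6.26. Sprr2 genes are near-identical copies, so a probe set named for 1 of them may also read its relatives.

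Among the Lce genes, Lce1m had the widest range of all 53 members, 6.21 on the log2 scale. It read 11.72, 11.92 and 9.84 in WT and 5.85, 12.06 and 8.78 in TG. TG array 1 was therefore 2.94 below the next lowest array, the widest such gap of all 22180 genes, and only 0.0135% of genes were at least 2-fold below every other array there. The TG minus WT difference was -2.27 ± 1.48 (SE), and -0.74 without TG array 1. A weaker Lce1m feature did not share the drop and read 7.28 on TG array 1, against 6.71 to 7.46 on the others.

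TG array 2 was the highest array for 16 of the 53 members, against 13.4% of all genes. WT array 1 was the highest for more of them, 18, against 19.8% of all genes. Of the 16 highest on TG array 2, 8 were Lce genes, and the widest gaps were in the Lce genes. Lce1f read 6.97, 7.34 and 6.70 in WT and 6.29, 9.26 and 6.41 in TG, so TG array 2 lay 1.93 above the next highest array. The gap was 1.75 for Lce1e, 1.54 for Lce1a1 and 1.08 for Lce1b. Just below 2-fold came Lce6a at 0.91. These 4 genes past 2-fold were among just 12 of all 22180 genes (0.0541%) that were at least 2-fold higher on TG array 2 than on every other array. Some features are assigned to more than 1 Lce1 gene, so a probe set named for a single Lce1 gene may also read its relatives. Whether the 4 are separate signals was not tested. Among the members on chromosome 3, Lce6a, Lce1a1, Lce1b, Lce1a2, Lce1e and Lce1f follow each other in this order. Lce1a2 read 5.08 to 6.17 with TG array 2 only 0.14 above the next.  The Lce3 genes varied little, with Lce3c between 7.42 and 8.04 and Lce3d between 6.82 and 7.25.

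**Figure D3:**
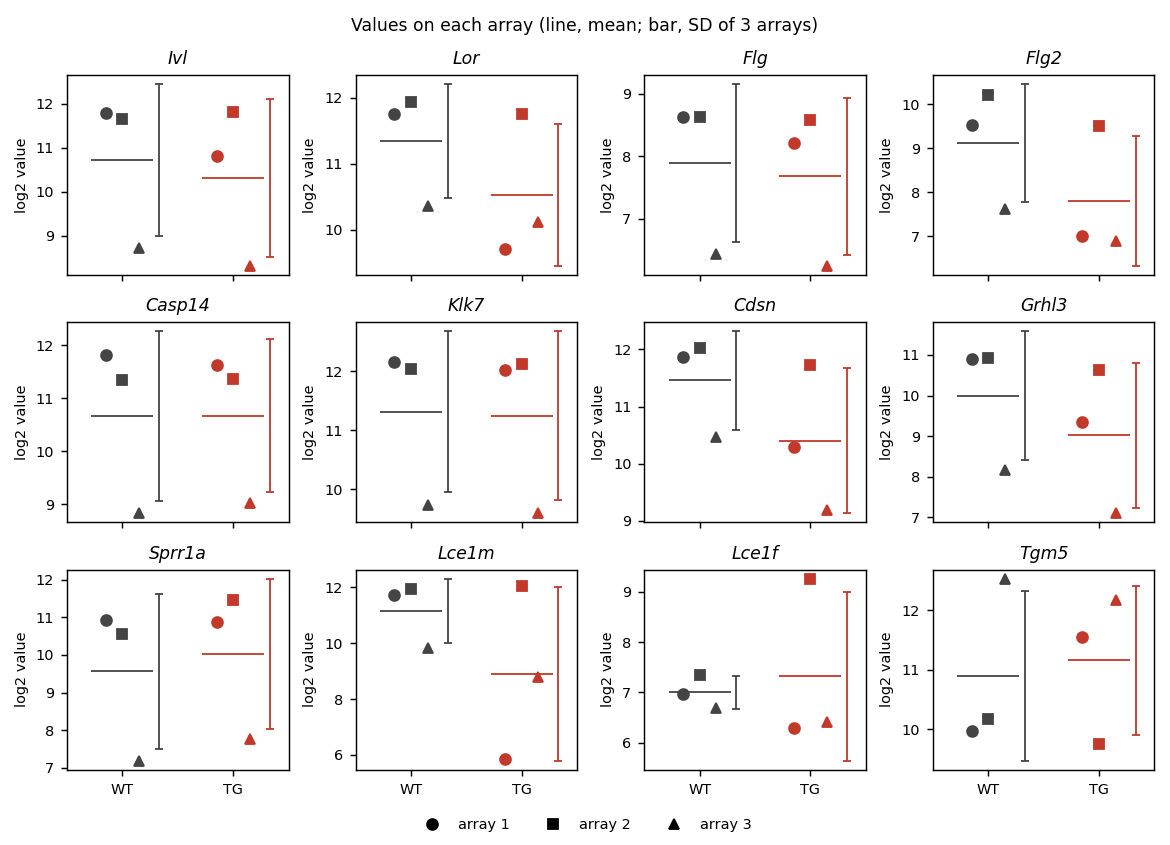
Log2 values of 12 of the genes on each array, WT in grey and TG in red, with circles for array 1, squares for array 2 and triangles for array 3; lines are the means and bars the SD of 3 arrays. The triangles are lowest in Ivl, Casp14, Klk7 and Grhl3 in both genotypes and highest in Tgm5, while TG array 1 is lowest in Lor and Lce1m.

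The transglutaminase genes did not move as 1 group. Tgm1, encoding the membrane-anchored enzyme that cross-links the envelope, read 9.95, 9.85 and 7.64 in WT and 8.82, 9.61 and 7.47 in TG. Tgm3, whose product acts in the epidermis and the hair follicle, read 6.97, 8.25 and 7.01 in WT and 8.04, 8.59 and 6.83 in TG. Tgm5, encoding a transglutaminase of the upper epidermis, read 9.97, 10.18 and 12.53 in WT and 11.54, 9.75 and 12.18 in TG. Array 3 lay above the mean of arrays 1 and 2 by 2.46 in WT and 1.53 in TG for Tgm5, while for Tgm1 that difference was -2.26 and -1.75. From high to low the Tgm5 values ran WT 3, TG 3, TG 1, WT 2, WT 1 and TG 2, the same order over the 6 arrays as Cd34. None of the enzymes differed between genotypes beyond its spread, at -0.51 ± 0.76 (SE) for Tgm1, 0.41 ± 0.53 for Tgm3 and 0.26 ± 0.85 for Tgm5. Calml3, encoding a calmodulin-like protein of epithelia, was the other listed gene that was higher on the arrays numbered 3, at 12.28 against 11.37 and 11.46 in WT. In TG it read 12.04, 11.62 and 12.02.

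Proteases and their inhibitor were lower on the arrays numbered 3 throughout. Casp14, encoding the caspase that takes part in filaggrin breakdown, read 11.82, 11.34 and 8.83 in WT and 11.64, 11.37 and 9.02 in TG. Klk7, a kallikrein gene of the shedding cell layer, read 12.16, 12.05 and 9.73 in WT and 12.03, 12.13 and 9.59 in TG. In these genes the genotypes were nearly superimposed, with differences of 0.011 ± 0.97 and -0.066 ± 0.89 (SE). The 95% intervals, -2.30 to 2.32 for Casp14 and -2.19 to 2.06 for Klk7, leave room for a difference either way. Klk5, whose product can activate other kallikreins, read 11.69, 11.65 and 8.99 in WT and 10.62, 11.28 and 8.24 in TG, where each TG array lay below the WT array of the same number. Spink5, encoding the kallikrein inhibitor LEKTI, had the same order, with 11.24, 11.69 and 10.47 in WT and 10.79, 11.49 and 10.24 in TG. Asprv1, encoding an aspartic protease that cleaves profilaggrin, read 11.50, 11.68 and 9.62 in WT and 10.06, 11.64 and 9.32 in TG.

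Among adhesion genes, Cdsn encodes corneodesmosin, which holds cornified cells together until they shed. It read 11.88, 12.03 and 10.46 in WT and 10.29, 11.72 and 9.19 in TG, a difference of -1.05 ± 0.69 (SE). Lypd3, encoding a membrane-anchored protein of suprabasal cells, read 12.00, 11.73 and 10.28 in WT and 11.37, 11.91 and 10.26 in TG. A weaker Lypd3 feature did not share the 2-fold drop. It read 8.59, 8.74 and 8.86 in WT and 8.62, 8.50 and 8.24 in TG. The secreted suprabasal genes Sbsn, Dmkn and Krtdap, neighbours on chromosome 7, were each lower on array 3 in both genotypes. Sbsn read 13.30, 13.27 and 12.38 in WT and 12.80, 13.21 and 12.12 in TG. Krtdap read 11.94, 11.90 and 9.74 in WT and 10.90, 11.83 and 9.60 in TG. Dmkn differed on array 3 from arrays 1 and 2 by -1.10 in WT and -1.03 in TG.

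Of the transcription factors, Grhl3, a grainyhead family gene required for the skin barrier, read 10.91, 10.92 and 8.17 in WT and 9.36, 10.62 and 7.10 in TG. Every TG array lay below the WT array of its number, and the difference was -0.97 ± 1.07 (SE). Ovol1, encoding a zinc finger protein that restrains proliferation as keratinocytes differentiate, read 8.41, 8.50 and 7.08 in WT and 8.65, 8.74 and 7.14 in TG. Here every TG array lay above the WT array of its number.

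TG array 1 separated the members that were otherwise low together. Of the 53, 28 were at least 2-fold lower on TG array 3 than on TG array 2, and TG array 1 was nearer to TG array 3 for 14 of them and nearer to TG array 2 for the other 14. Its position, with 0% at the value of TG array 3 and 100% at that of TG array 2, was 111% for Casp14, 96.1% for Klk7, 94.2% for Ovol1, 84.3% for Sprr1a and 83.8% for Flg. It was 17.5% for Cnfn, 17.4% for Hrnr, 15.6% for Lce1a1, 4.81% for Flg2, -25.2% for Lor and -89.6% for Lce1m. The median was 51.1% over the 28 members and 61.4% over the 1204 genes that met the same rule, of which 29.9% were nearer to TG array 3.

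**Figure D4:**
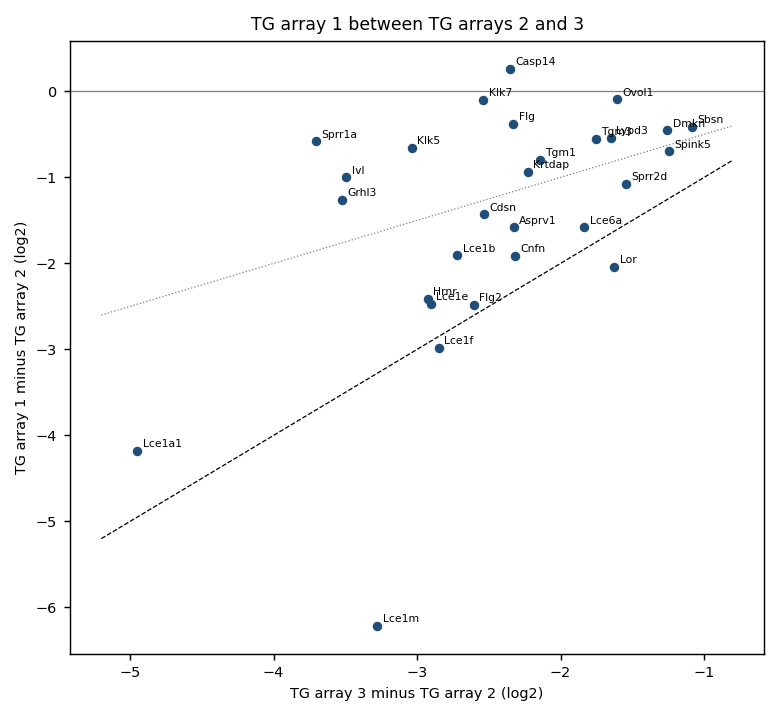
TG array 1 minus TG array 2 (vertical) against TG array 3 minus TG array 2 (horizontal), both in log2, for the 28 genes at least 2-fold lower on TG array 3. Genes on the solid line at 0 read the same on TG arrays 1 and 2, those on the dashed line the same on TG arrays 1 and 3, and the dotted line is the midpoint; Casp14 and Klk7 lie at the top, and Flg2, Lor and Lce1m near or below the dashed line.

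Other genes of terminal differentiation were taken from 5 lists, with 83 genes measured. In limma 0 of them passed the adjusted threshold, and 1, Stfa3 of the stefin protease inhibitors, had an unadjusted p under 0.05 (0.00941), a smaller share than the 2.77% of all genes. Stfa3 read 10.76, 10.52 and 10.23 in WT and 12.04, 11.43 and 11.04 in TG, and was the 1 of the 83 with all TG arrays above all WT arrays, where 3.99% of all genes were. Of the 83, 30 were at least 2-fold lower on array 3 in both genotypes, or 36.1%, close to the share of the cornification genes (37.7%). Suprabasal keratin and desmosome genes were below 0 in TG minus WT for 13 of 14, with a median of -0.25, where 52.1% of all genes were below 0. Krt1, a keratin gene of the first suprabasal layer, read 13.83, 13.86 and 12.26 in WT and 13.46, 13.81 and 11.94 in TG. Barrier lipid enzyme genes were below 0 for 17 of 18, with a median of -0.43. Among them were the lipoxygenase genes Aloxe3 at -0.87 ± 0.48 and Alox12b at -0.81 ± 0.66. The TG arrays differed in this. Against the mean of WT arrays 1 and 2, the lipid list had a median of -0.886 on TG array 1 and -0.0748 on TG array 2. For the keratin and desmosome list these were -0.489 and -0.102. TG array 3 against WT array 3 gave -0.318 and -0.244 for the 2 lists. Envelope precursor genes had a median of -0.055 (10 of 19 below 0), desquamation proteases -0.049 (8 of 13) and differentiation regulators -0.079 (11 of 19). When paired by number, 31 of the 83 had an unadjusted p under 0.05, or 37.3%, against 8.45% of all genes, with 20 lower and 11 higher, and 0 passed the adjusted threshold.

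Markers of other cells also differed between the arrays, some lists in the direction of the cornification genes and some against it. The 23 listed genes averaged 10.59, 10.70 and 9.10 in WT and 9.89, 10.64 and 8.80 in TG (mean log2 value per array). The mean over 7 of 7 spinous layer markers, which share Krtdap and Sbsn with the members, was 10.31 to 12.02 in WT and 10.09 to 11.97 in TG. T-cell markers (10 of 12 measured) had means of 7.34 to 8.86 in WT and 7.04 to 9.32 in TG, and sebocyte markers (10 of 10) means of 5.87 to 7.73 and 6.12 to 7.75. These 3 lists were lowest on array 3 in both genotypes. Means of upper follicle markers (7 of 7) were too, at 10.18 to 10.88 in WT and 10.31 to 11.28 in TG. So were those of Langerhans cells and macrophages (11 of 12), at 7.62 to 7.96 and 7.40 to 8.14. Means of the inner root sheath and hair shaft (13 of 14) were also lowest there, at 6.24 to 7.18 and 6.22 to 6.53. The TG median of that last list was instead highest on array 3, at 6.022, 6.125 and 6.299. Genes lower on array 3 in both genotypes were 5 of 7 for the upper follicle, with 1 higher in both. They were 7 of 11 for Langerhans cells and macrophages, with 2 higher, and 7 of 13 for the inner root sheath and hair shaft, with 3 higher. Means of bulge stem cell markers (16 of 16) were highest on array 3, at 9.39, 9.37 and 10.77 in WT and 10.50, 9.48 and 10.54 in TG. The TG median of this list was instead highest on array 1, at 10.294, 9.466 and 10.266. Bulge genes higher on array 3 in both genotypes were 12 of 16, with 1 lower in both. Basal layer markers (7 of 9) spanned 10.67 to 11.30 in WT and 10.77 to 10.97 in TG. Endothelial markers (8 of 8) averaged 5.58, 5.54 and 6.30 in WT and 5.72, 5.73 and 6.38 in TG, and all 8 were higher on array 3 in both genotypes. Fibroblast markers (8 of 8) averaged 6.47, 6.16 and 6.80 in WT and 6.75, 6.54 and 7.04 in TG. Of these, 6 of 8 were higher on array 3 in both and 2 lower. Their medians were instead lowest on array 3, at 6.915, 6.616 and 6.514 in WT and 7.146, 7.017 and 6.971 in TG. Of all 22180 genes, 6956 were higher and 9727 lower on array 3 in both genotypes. Melanocyte markers (8 of 8) went opposite ways, with a median array 3 difference of -0.87 in WT and 0.48 in TG. The part of other cells in the array differences was not tested, and no detection value was used, so no marker is called absent.

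**Figure D5:**
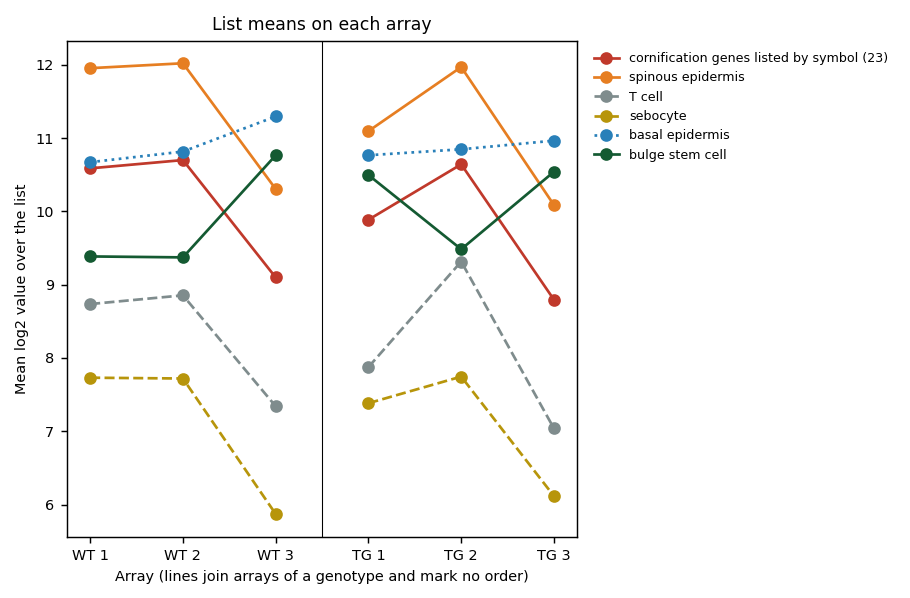
Mean log2 value on each array for the 23 cornification genes listed by symbol and for 5 lists of cell markers; lines join the arrays of a genotype. The cornification, spinous, T-cell and sebocyte means are lowest on WT 3 and TG 3, and the bulge mean is highest there, with TG 1 at 10.50 close to TG 3.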

How the data were processed

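Each value is the authors' deposited expression value on a log2 scale for 1 array and feature. The scale was read from the values (2.85 to 14.42, array medians 5.90 to 5.99), because no source used here states the log base, summarisation or scaling. Per the submitters' processing notes, the software was Transcriptome Analysis Console together with Affymetrix Expression Console 1.4.1.

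Of 41345 features, 23521 had 1 gene symbol in the platform annotation, 1814 several and 16010 none. Only the first kind was used, with the brightest feature per gene (22180 genes). The 53 members had 55 features, and all 53 Entrez IDs were found in the RefSeq table (GRCm38.p6), with 0 symbols changed. Low values were kept. The brightness of different probes was not compared. Of the members, 28 lay above the median gene, a filter used as an alternative only.

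TG was compared with WT by a moderated two-sided test (R 4.3.3, package limma 3.58.1, its lmFit and eBayes functions). Genotype was the sole term, and p-values were adjusted by Benjamini-Hochberg across the 22180 genes. The test was checked on simulated data in which 200 genes were given large changes and the noise was independent between genes. That check does not cover small differences or variation that many genes share on an array. With 3 against 3 arrays an exact two-sided permutation test cannot give a p below 0.1. The number of arrays limits the precision. Whether each sample is a separate animal is not stated in the labels, so p-values reflect only the spread among these samples, which may be technical.

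To check the pairing, each array's deviation from its genotype mean was correlated between same-numbered arrays, giving 0.20, 0.67 and 0.74 for numbers 1, 2 and 3. As each exceeded 0.1, an alternative fit took same-numbered arrays as pairs. The pairing rests on this check alone, and the check did not single out same-numbered arrays. Arrays of unlike number also exceeded 0.1, at 0.50 for WT array 1 with TG array 2 and 0.17 for WT array 2 with TG array 1. Over the members alone the same-numbered values were 0.12, 0.78 and 0.90.

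Members, lists and tests were chosen with earlier results of these data known. Named genes were the 23 listed members, Lce and Sprr members with the highest or lowest means, smallest p or widest range, those without overlap, and up to 4 genes per other list by smallest p with a few fixed markers. Lce1e, Lce6a and Lce1a2 were outside this rule and were chosen after their values were seen. Alternatives were the replicate block, quantile normalization, the mean of features, all features, genes above the median level, no moderation, array weights and leaving out arrays.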

Additional observations from a re-analysis of the deposited data

How the results depend on the processing

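The count of members past the adjusted threshold was 0 under all 16 alternatives run, and Pla2g2a, the 1 gene called among all genes, was lost (0 called) with no moderation and without TG array 1 or both arrays numbered 2 or 3 (0 to 1 with arrays left out). The count of members at an unadjusted p under 0.05, which was 0, became 6 with the replicate block (11.3%, against 8.45% of all genes), 1 with no moderation (1.89% against 3.34%) and 11 with array weights (20.8% against 14.1%), and lay between 0 and 7 with arrays left out. It was 7 without TG array 2 (13.2% against 3.91%), 4 without WT array 3 (7.55% against 4.79%), 3 without both arrays numbered 2 (5.66% against 1.94%) and 3 without both numbered 3 (5.66% against 5.92%). The replicate block changed no call on the adjusted p, and at an unadjusted p under 0.05 it took the 83 other pathway genes from 1 to 31 and all genes from 615 to 1874. The median difference over the members lay between -0.34 and 0.023 with arrays left out, that over the 23 listed genes between -0.95 and 0.068. With array weights the median was -0.192 over the members, -0.547 over the 23 listed genes, -0.184 over the Lce genes and -0.119 over the Sprr genes. Over the genes above the median level it was -0.309 for the members and -0.103 for the Lce genes, and with quantile normalization -0.0234 for the Sprr genes. The median array 3 shift of -0.78 in WT and -0.76 in TG was -1.75 and -1.43 over the 28 members above the median gene, which leaves out members with low values. Of 38 named members, 12 kept their sign under every alternative run, and the other 26 did not. Most of the 12 still moved widely over the alternatives, Flg2 from -2.31 to -0.726, Hrnr from -1.67 to -0.0483, Rptn from 0.0197 to 0.49, Lor from -1.65 to -0.209, Cnfn from -1.32 to -0.0845, Tgm3 from 0.0235 to 0.901, Asprv1 from -1.25 to -0.0831, Cdsn from -1.72 to -0.448, Grhl3 from -1.89 to -0.00634, Lce1m from -4.58 to -0.462, Lce1i from -0.266 to -0.193 and Sprr2b from -1.23 to -0.146, and Lce1m was -1.24 with the mean of features. The values nearest 0 came without TG array 3 for Grhl3 and Asprv1 and without WT array 2 for Hrnr. With 1 array left out, the differences of members that changed sign ran as follows: Flg from -0.947 to 0.495, Ivl from -1.42 to 0.584, Tgm5 from -0.246 to 1.08, Klk7 from -0.856 to 0.764, Lypd3 from -0.687 to 0.3, Lce1a1 from -1.85 to 0.619, Lce1b from -0.831 to 0.529, Lce3c from -0.265 to 0.0412, Lce3d from -0.154 to 0.0552, Sprr1b from -0.274 to 0.12, Casp14 from -0.906 to 0.839, Ovol1 from -0.277 to 0.7, Lce6a from -0.477 to 0.441, Sprr1a from -0.715 to 1.61, Sprr2d from -0.264 to 0.508, Lce1f from -0.65 to 0.839, Lce1e from -0.56 to 0.892, Sprr4 from -0.0244 to 0.175, Tgm1 from -1.27 to 0.0685, Klk5 from -1.62 to 0.17, Spink5 from -0.627 to 0.00492, Krtdap from -1.14 to 0.172, Sbsn from -0.572 to 0.023 and Dmkn from -0.689 to 0.0205. Without both arrays numbered 1, the sign also turned for Tgm5 (-0.39), Lypd3 (0.0763), Calml3 (-0.0514), Lce1a1 (0.647), Lce1b (0.263), Lce3c (0.0857), Lce3d (0.109), Sprr1b (0.11) and Lce1a2 (0.0659). Without both arrays numbered 2, the sign also turned for Lce1f (-0.482), Lce1e (-0.486), Lce6a (-0.475), Sprr2d (-0.162) and Sprr4 (-0.103). Without both arrays numbered 3, the sign also turned for Casp14 (-0.0783) and Lce1b (0.188). With array weights, Lce1f was -0.338, Lce1e was -0.118, Lce6a was -0.183, Sprr1b was 0.101 and Sprr2d was -0.127, and with quantile normalization Casp14 was -0.0109 and Sprr1b was 0.00599. The cause was not tested.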

Other observations

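Features that the annotation assigns to several Lce or Sprr genes were not members, and 7 of them carry such symbols. The brightest, shared by Sprr2a1, Sprr2a2, Sprr2a3 and Sprr2b, read 12.04, 11.56 and 8.67 in WT and 9.24, 10.48 and 8.43 in TG. Another, shared by the Sprr2a genes alone, read 10.85, 9.77 and 6.46 in WT and 6.97, 8.63 and 6.06 in TG. In both, WT arrays 1 and 2 lay above all TG arrays, as in Sprr2b. The feature shared by Lce1c and Lce1k read 9.91, 10.52 and 4.77 in WT and 6.17, 11.62 and 5.42 in TG, so TG array 2 was its highest, as for Lce1a1, Lce1b, Lce1e and Lce1f. The feature of Lce1k alone read 3.74 to 3.92 on all 6 arrays. These are values from single features, and no test was run on them.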
